A study of Arabidopsis thaliana with 21 samples.

Results

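After 18 h of red light, 51 Arabidopsis genes that had no more than a small response at 1 h stood at least 2 log2 units above their dark level, where 1 log2 unit is a factor of 2. They form a set of late, strongly red-induced genes, and 51 of 13356 genes named on the array belong to it. All are known to the array's annotation by their AGI locus number alone, a kind of gene of which 11797 were considered, so the set is 0.432% of them. Members were selected on measured values. Each gene was represented by its brightest probe set, intensities were put on a common scale by quantile normalization and raised to 0 where negative, and the log2 of the value plus an offset of 16 was used. A member had a difference between red and dark wild type under 0.3 log2 units in size at 1 h and of at least 2 log2 units at 18 h. These 2 differences therefore describe how the genes were chosen, and they carry no test. The offset shrinks both of them for dim genes. AT3G05730 and AT1G52220 meet both thresholds and were set aside by the rule.

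The arrays held seedlings of ecotype Col-0 in 7 groups, with 3 biological replicates of each. The labels call the dark groups etiolated and both red light groups deetiolated. Every seedling had grown in darkness for 4 days on medium without sucrose, after a cold period and a short white light pulse that starts germination. The pif3 mutant was sampled at the end of that time (pif3_D0) and after 1 h more of darkness (pif3_D1). The wild type was sampled after 1 h or 18 h of continuous red light (WT_R1, WT_R18), after 1 h or 18 h more of darkness instead (WT_D1, WT_D18), and at the start (WT_D0). No pif3 seedlings in red light were among the samples, so the red response of the members was measured in the wild type alone. The pif3 allele is not named in the labels. The labels name no dissected tissue, and in whole seedlings fewer cells of a type and less RNA per cell cannot be told apart.

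Seedlings grown in darkness hold etioplasts, plastids without a working photosynthetic membrane. Light seen by phytochrome, the red light receptor, starts de-etiolation, in which etioplasts become chloroplasts and cotyledons open and expand. PIF3 is a basic helix-loop-helix factor that phytochrome binds and causes to be degraded, and in darkness PIF factors are known to restrain this programme. Building a chloroplast needs thylakoid proteins, enzymes of carbon metabolism and the plastid's own translation machinery, most of which are encoded in the nucleus.

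No probe set was paired with PIF3, so the mutation could not be checked on the arrays. Arrays of the same group were correlated, with r between 0.977 and 0.992 over the probe sets, and the deposited medians ran between 36.13 and 102.9 intensity units before scaling. The signal of a control probe set for 25S ribosomal RNA was scaled by each array's median. It then read between 4184 and 5838 units in the 6 pif3 arrays, between 628.7 and 5280 in WT_D0 and between 127.1 and 460.1 in WT_R1. The range was 683.2 to 5372 in WT_D1, 2700 to 3662 in WT_R18 and 378.4 to 4460 in WT_D18. Of 11 listed marker entries 5 were measured. RCA and LHCB4.1, genes of photosynthetic tissue, averaged 6526 and 7814 units in WT_R18, against 1377 and 3593 units in WT_D18. PORB, a chlorophyll synthesis gene listed as a marker of etiolated tissue, averaged 1838 units in WT_R18 and 2368 units in WT_D18. The SDs were 42.4 and 498 units (n = 3 each). The 18 h difference of PORB, -0.34 log2 units, was not called in limma (adjusted p of 0.226), and its WT_D0 mean was 3076 units. The seed oleosin AT3G01570 and the seed storage protein gene PAP85 averaged 81.5 and 133 units in WT_R18, against 932 and 1904 units in WT_D18. Their part in the members' values was not tested.

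**Figure D1:**
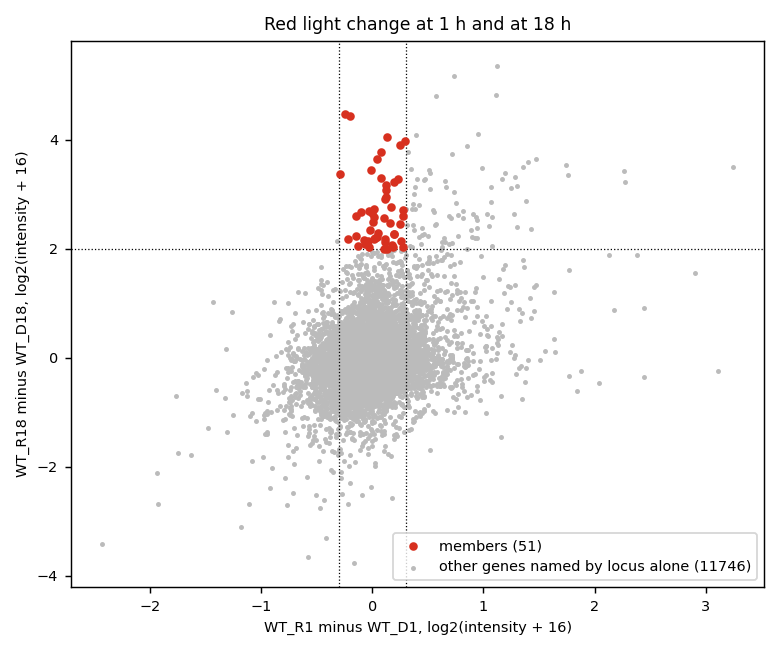
Each point is a gene named by its locus alone, with WT_R1 minus WT_D1 on the x axis and WT_R18 minus WT_D18 on the y axis, both in log2(intensity + 16). Dotted lines mark the thresholds that define the 51 members, which fill the upper middle of the plot between 2.002 and 4.47 on the y axis.

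Across the 51 members the difference between WT_R18 and WT_D18 had a median of 2.57 log2 units and a range of 2.002 to 4.47. It reached 3 log2 units in 14 members. The difference between WT_R1 and WT_D1 had a median of 0.08 log2 units, was above 0 in 35 members and ran between -0.29 and 0.30. The WT_R1 and WT_D1 arrays overlapped for 48 members. In the other 3, AT1G29700, AT5G07020 and AT5G63060, all WT_R1 arrays were above all WT_D1 arrays, as for 8.42% of the 22746 probe sets tested. The WT_R18 arrays lay above all WT_D18 arrays for all 51 members, as they did for 19.6% of probe sets. For each of the 51 they also lay above the other 18 arrays of the series, as for 8.82% of probe sets. The rule chose on these contrasts, and nothing further is read from these counts.

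The members' probe sets covered a wide range of signal. WT_R18 means ran from 61.2 to 2739 units with a median of 359. In WT_D18 they ran from -30.5 to 533 units with a median of 38.2. AT1G32470, AT2G42220, AT2G37660, AT3G50685, AT2G43560, AT1G56190 and AT1G12800 averaged 1000 units or more in WT_R18, and AT5G03350, AT2G29360, AT1G78995 and AT3G44970 averaged under 100 units there. In WT_D18 15 members averaged less than the offset of 16 units and 3 of these averaged below 0, so that their log2 differences rest on the offset and no ratio of intensities is given for them. For the other 36 members the ratio of the WT_R18 to the WT_D18 mean had a median of 6.75 and ran between 4.26 and 23.5. At 1 h, 10 members averaged under 16 units in WT_D1 and 7 did in WT_R1. Their small 1 h differences rest on the offset too, so a late start is not established for them. The brightness of different probe sets is not compared as an amount of RNA.

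Array by array, the median of the members was 8.66, 8.33 and 8.84 on the log2(intensity + 16) scale in WT_R18, against 5.81, 5.75 and 5.85 in WT_D18. In WT_R1 it was 6.17, 5.93 and 6.15, against 6.02, 5.89 and 5.98 in WT_D1. The 1 h arrays overlap, and the WT_R18 arrays stand apart from all others. WT_R18 replicate 2 had the lowest reading of its group for 43 members and replicate 3 the highest for 40. WT_D18 replicate 2 was the lowest of its group for 32.

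**Figure D2:**
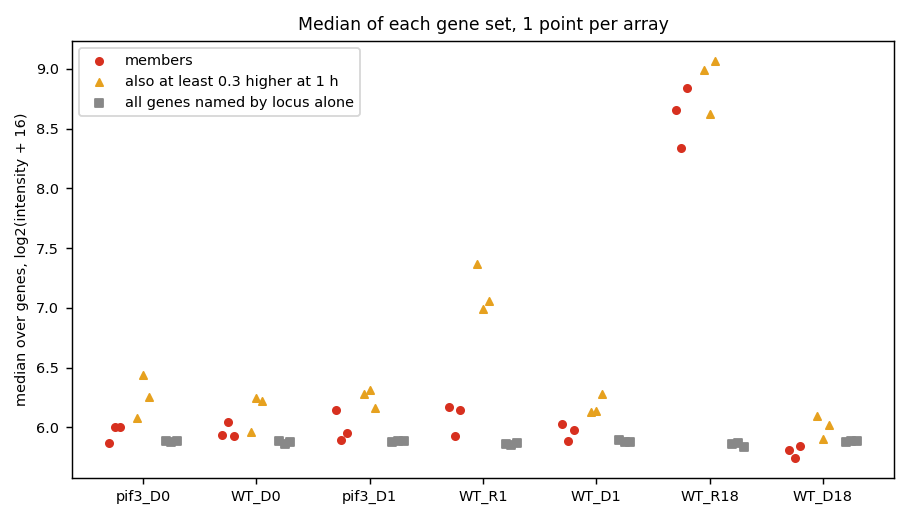
Points give the median over genes in each of the 21 arrays, on the log2(intensity + 16) scale, for the members, for the 86 locus-only genes with a 1 h difference of at least 0.3 as well, and for all locus-only genes. In the WT_R18 arrays the members' median lay between 8.33 and 8.84, and in the WT_R1 arrays between 5.93 and 6.17, where those 86 genes lay between 6.99 and 7.37.

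Against the start of the time course, WT_R18 exceeded WT_D0 by 1.34 to 4.06 log2 units with a median of 2.38, and by at least 2 in 35 of 51 members. Levels in extended darkness were lower for most members. WT_D18 lay below WT_D0 for 42 of 51 members (82.4%), against 5591 of 11797 locus-only genes (47.4%), with a median difference of -0.20 log2 units for the members and 0.00 for the locus-only genes. Because WT_D18 entered the rule, with low values there favouring selection, this is a description and carries no test. Members at least 0.5 log2 units lower in WT_D18 than in WT_D0 numbered 7, against 206 of 11797 locus-only genes. The 7 included AT1G74070 (a difference of -0.79) and AT4G39970 (-0.73). The highest differences in the other direction were 0.57 log2 units for AT4G19530 and 0.38 for AT5G01015.

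**Figure D3:**
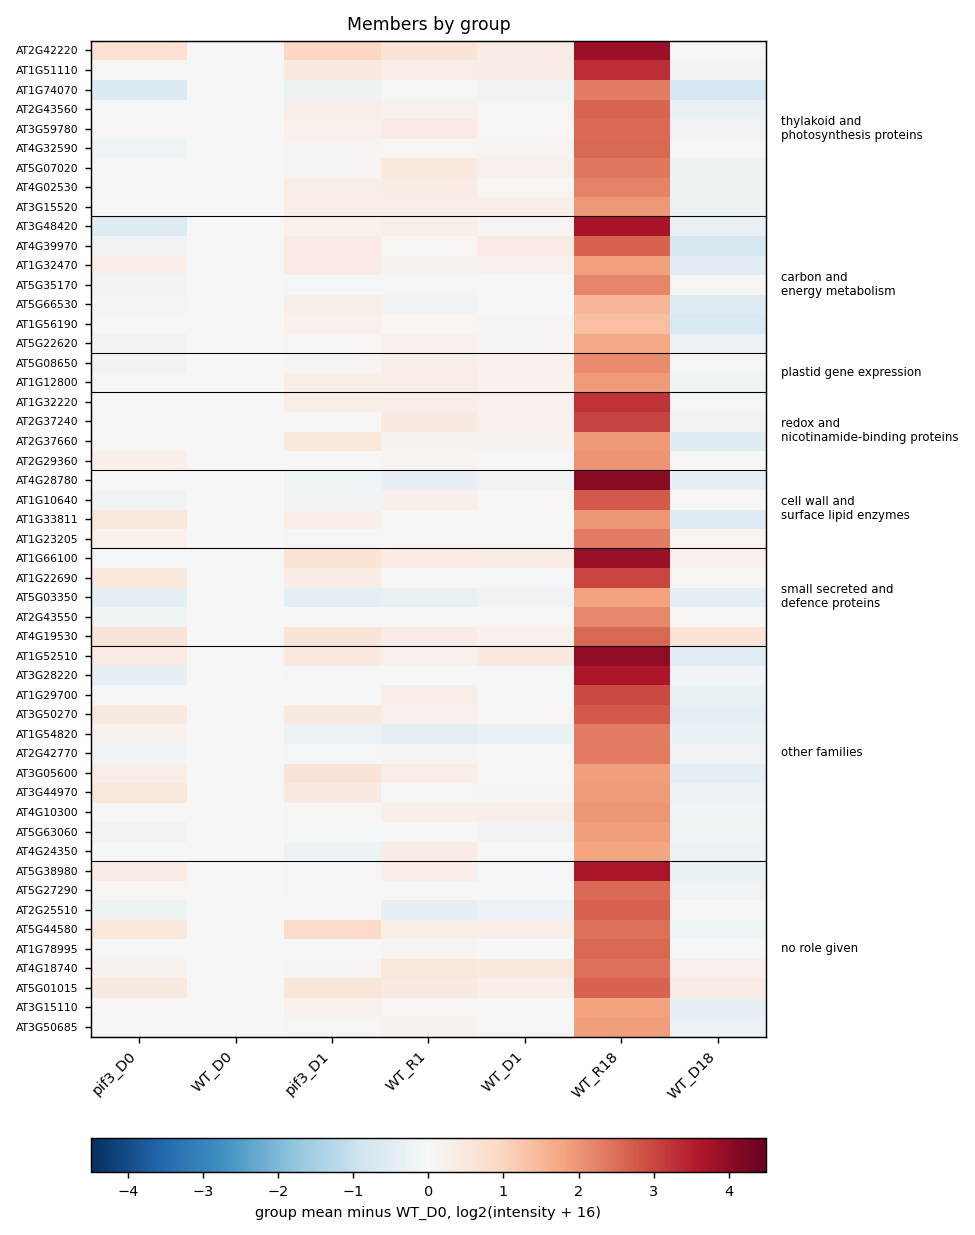
Rows are the 51 members grouped by role and ordered by their 18 h difference, columns are the 7 groups, and colour gives the group mean minus the WT_D0 mean in log2(intensity + 16) units. The WT_R18 column holds the only differences above 1 log2 unit, between 1.34 and 4.06, and the WT_D18 column runs between -0.79 and 0.57.

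Proteins of the thylakoid, the photosynthetic membrane of the chloroplast, and proteins linked to it made up 9 members. Their 18 h differences ran between 2.195 and 3.91 log2 units with a median of 2.71, and all 9 were lower in WT_D18 than in WT_D0. AT2G42220, which encodes a rhodanese-like domain protein, read 2636, 2323 and 2818 units in WT_R18, against 218, 95.04 and 183 units in WT_D18. At 1 h it read 372, 205 and 205 units in WT_R1 and 211, 171 and 249.9 units in WT_D1. The 18 h groups are far apart, a ratio of 15.7 between means of 2592 ± 250.5 and 165 ± 63.3 units (SD, n = 3 each), and the 1 h groups overlap.

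AT2G43560 encodes an FKBP-type peptidyl-prolyl isomerase, an enzyme class that helps proteins fold. It read 1474, 1148 and 1505 units in WT_R18, against 184, 146 and 172 units in WT_D18, a difference of 2.92 log2 units. A further rhodanese-like protein gene, AT3G59780, read 707, 543 and 829 units in WT_R18 and 109, 71.1 and 96.3 units in WT_D18. No WT_R18 array of either gene came near a dark one. AT4G32590, for a protein with a ferredoxin-like iron-sulfur domain, had 387, 267 and 388 units in WT_R18, against 40.1, 33.9 and 46.2 in WT_D18. At 1 h its WT_R1 mean of 49.3 ± 17.4 units and WT_D1 mean of 49.6 ± 13.01 units (SD, n = 3 each) differed by less than their spread.

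Fibrillins coat lipid droplets and membranes inside plastids. The fibrillin-type gene AT1G51110 read 338, 258 and 394 units in WT_R18, against 19.3, 7.91 and 20.1 units in WT_D18, where it was near or below the offset. Its other probe set on the array gave 310, 217 and 337 units in WT_R18 and 8.71, -0.892 and 11.6 units in WT_D18, so both probe sets placed all WT_R18 arrays above the WT_D18 arrays, with differences of 3.45 and 3.76 log2 units. AT1G74070, a gene for a cyclophilin-type isomerase, read 162, 118 and 187 units in WT_R18 and -2.34, 0.995 and 13.6 units in WT_D18. In WT_D0 it had read 4.89, 26.99 and 30.4 units, so that its 18 h difference of 3.08 log2 units against WT_D18 became 2.29 against WT_D0. The remaining 3 of this class, AT5G07020 (which helps maintain photosystem II in high light), AT4G02530 (a protein of the thylakoid lumen) and AT3G15520 (a lumenal cyclophilin-type isomerase), had differences of 2.61, 2.46 and 2.195 log2 units.

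Carbon and energy metabolism accounted for 7 members, with differences between 2.002 and 4.05 log2 units and a median of 2.14. AT3G48420 encodes a phosphatase of the haloacid dehalogenase type and had the largest ratio of the 36 members with one. It read 949, 683 and 913 units in WT_R18, against 40.5, 42.00 and 26.04 units in WT_D18, which is 23.5 between the means. Its WT_R1 readings of 108, 41.3 and 53.03 units and WT_D1 readings of 52.8, 43.5 and 74.4 units overlapped. AT4G39970, for another hydrolase of that type, read 792, 562 and 812 units in WT_R18 and 64.1, 37.5 and 65.7 units in WT_D18, and 57.9, 150.5 and 113 in WT_D0.

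AT1G32470 encodes the H protein of glycine decarboxylase, which carries the reaction intermediate of photorespiratory glycine breakdown in mitochondria. It read 2949.7, 2242 and 3027 units in WT_R18, against 642, 389.8 and 569 units in WT_D18, so it had a clear signal in darkness too. AT1G56190, a plastid phosphoglycerate kinase of the Calvin cycle, read 1135, 997 and 1241 units in WT_R18, against 277, 227 and 288 units in WT_D18. For these 2 genes WT_D18 minus WT_D0 was -0.50 and -0.69 log2 units, and WT_R18 minus WT_D0 was 1.84 and 1.34. AT5G35170 (an adenylate kinase), AT5G66530 (a galactose mutarotase-like protein) and AT5G22620 (a phosphatase of the phosphoglycerate mutase family) had 18 h differences of 2.14, 2.05 and 2.002 log2 units.

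The plastid's own gene expression was represented by 2 members. AT5G08650, a chloroplast translation factor of the LepA type, read 688, 541 and 894 units in WT_R18, against 140.2, 125 and 158 units in WT_D18. AT1G12800, whose protein has an S1 RNA-binding domain, read 1069, 851 and 1233 units in WT_R18 and 240.1, 186 and 263 units in WT_D18. For both, the WT_R18 arrays were all higher and the 1 h groups overlapped, with 1 h differences of 0.12 and 0.11 log2 units.

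Redox and nicotinamide-binding proteins gave 4 members. AT1G32220, with a Rossmann fold that binds NAD(P), read 718, 486 and 804 units in WT_R18, against 49.7, 48.96 and 58.1 units in WT_D18, and its dark level moved little, with 49.7, 62.1 and 50.9 units in WT_D0. AT2G37240, of the thioredoxin superfamily, read 456, 296 and 492 units in WT_R18 and 27.5, 36.5 and 24.7 units in WT_D18, a ratio of 14.03. AT2G37660, also for a Rossmann-fold protein, read 1792, 1591 and 1862 units in WT_R18, against 321, 237 and 347 units in WT_D18. Its WT_R1 arrays spread widely, at 788, 384 and 389.5 units, around the WT_D1 readings of 488, 374 and 636 units. The short-chain dehydrogenase gene AT2G29360 was dim throughout, with 73.97 ± 16.1 units in WT_R18 and 5.88 ± 3.26 units in WT_D18 (SD, n = 3 each).

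**Figure D4:**
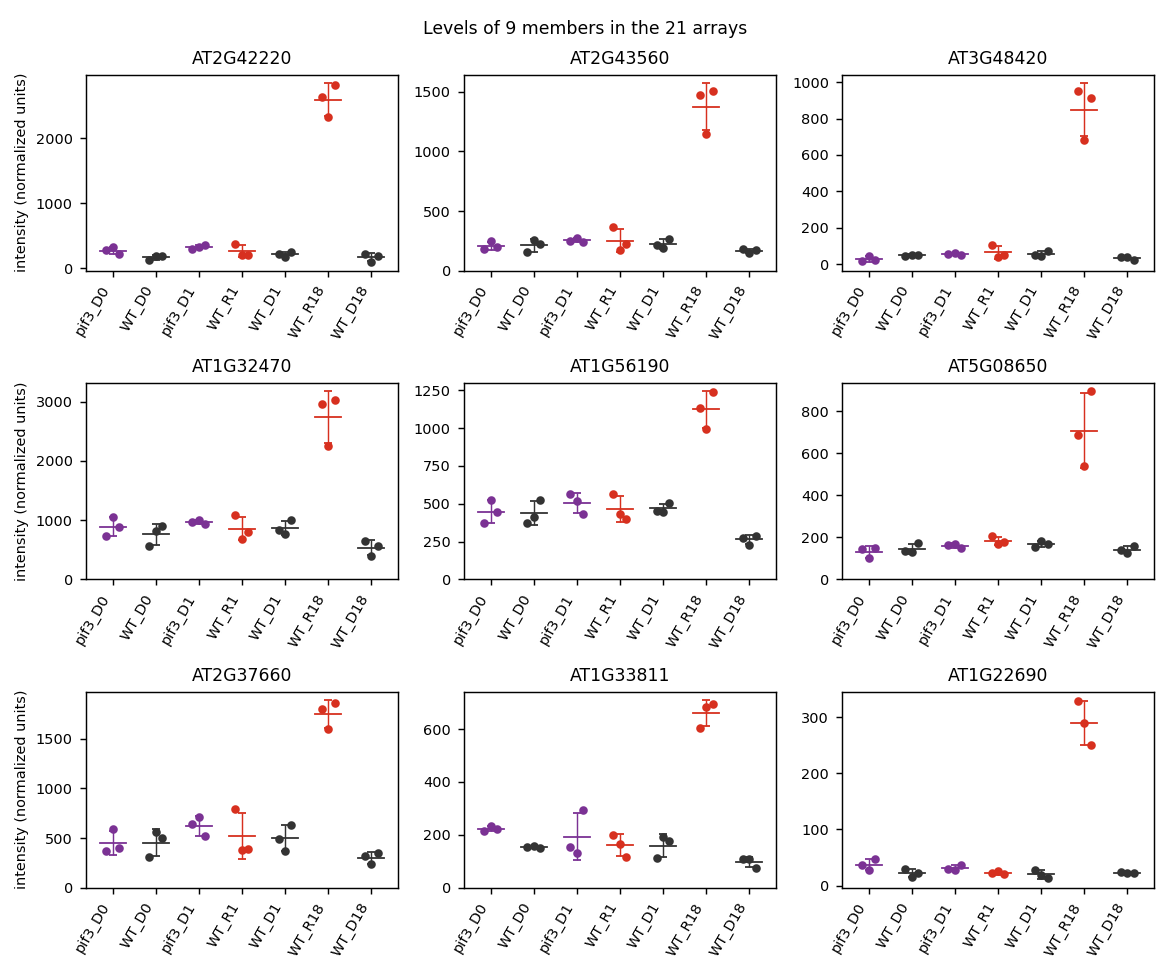
Points are the quantile-normalized intensities of 9 members in each array, lines are group means and bars are SD (n = 3). The WT_R18 points stand above all other groups in every panel, for example at 2323 units or more in AT2G42220 and 997 or more in AT1G56190, and the WT_R1 and WT_D1 points overlap.

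Proteins placed by hand in a class of the cell wall and surface lipids, the outer layers of the growing cell, gave 4 members. AT4G28780, a GDSL-type lipase gene, was near 0 except in WT_R18. It read 318, 389.6 and 289 units in WT_R18, and between -11.5 and 10.8 units in all 18 other arrays. AT1G33811, of the same lipase family, read 604, 683 and 694 units in WT_R18, against 109, 111 and 75.8 units in WT_D18. AT1G10640 encodes a pectin lyase-like protein, of a family that acts on wall pectin, and read 326, 307 and 441 units in WT_R18 and 43.02, 39.2 and 32.5 units in WT_D18. AT1G23205, a pectin methylesterase inhibitor gene, averaged 153 ± 8.67 units in WT_R18 and 20.6 ± 4.16 units in WT_D18 (SD, n = 3 each).

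Small secreted and defence-related proteins gave 5 members, and only 1 of the 5 was lower in WT_D18 than in WT_D0. AT1G66100 encodes a thionin, a small antimicrobial peptide. It read 288, 256 and 325 units in WT_R18, against 9.89, -4.63 and 18.02 units in WT_D18, an average under the offset. AT1G22690, for a cysteine-rich peptide of the gibberellin-regulated family, read 329, 289 and 250.2 units in WT_R18 and 24.7, 23.2 and 21.7 units in WT_D18, a ratio of 12.5. In contrast to most members its highest WT_R18 array was replicate 1 and its lowest replicate 3. The defensin-like gene AT2G43550 lies next to AT2G43560 in locus order, with no annotated locus between them, and averaged 135 ± 7.10 units in WT_R18 and 19.4 ± 1.82 units in WT_D18 (SD, n = 3 each). AT4G19530, for a resistance protein of the TIR-NB-LRR type, and AT5G03350, for a legume lectin family protein, had differences of 2.004 and 2.23 log2 units. AT5G03350 read 36.7, 65.7 and 81.4 units in WT_R18 and below 0 in all WT_D18 arrays.

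A further 11 members belong to other protein families, of which 8 averaged under 16 units in WT_D18. AT1G52510, an alpha/beta-hydrolase gene, had the largest difference of the set at 4.47 log2 units. It read 512, 352 and 538 units in WT_R18, against 4.38, 1.13 and 12.5 units in WT_D18. Its WT_D1 readings of 21.9, 21.9 and 31.2 units were higher than those in WT_D18, and its WT_R1 readings of 44.03, 14.7 and 6.02 units overlapped them. AT3G28220, a gene for a TRAF-like protein, read 318, 200.5 and 369.7 units in WT_R18, and AT1G29700, for a metallo-hydrolase superfamily protein, read 289, 211 and 329.7. In WT_D18 they averaged 6.81 ± 6.77 and 13.7 ± 4.11 units (SD, n = 3 each), so both lay under the offset in extended darkness.

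AT4G10300 encodes a cupin, a small barrel-shaped protein, and read 1028, 806 and 1068 units in WT_R18 and 196, 182 and 230.3 units in WT_D18. The others were AT3G50270 (HXXXD-type acyltransferase), AT1G54820 (protein kinase), AT2G42770 (Mpv17/PMP22 family membrane protein), AT3G05600 (alpha/beta-hydrolase), AT3G44970 (cytochrome P450), AT5G63060 (Sec14-like lipid transfer protein) and AT4G24350 (phosphorylase superfamily). Their 18 h differences were 3.17, 2.61, 2.48, 2.27, 2.18, 2.07 and 2.04 log2 units in that order. AT1G54820 had the lowest WT_R1 level relative to WT_D0 of the 51, with 33.8, 15.9 and 38.4 units in WT_R1 and 43.6, 49.98 and 37.5 in WT_D0. Its WT_D1 readings of 41.3, 22.5 and 37.2 units overlapped those in WT_R1, and its WT_D1 minus WT_D0 was -0.28 log2 units. In WT_R18 it read 277, 224 and 346 units.

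For 9 members no role is given here. AT5G38980 had a difference of 3.97 log2 units, with 800.2, 655 and 963 units in WT_R18, against 24.3, 36.6 and 49.4 units in WT_D18. AT3G50685 read 1724, 1456 and 1811 units in WT_R18, against 404, 348 and 344 in WT_D18. AT5G27290 averaged 359 ± 76.5 units in WT_R18, against 39.7 ± 2.15 in WT_D18, 47.7 ± 8.48 in WT_D1 and 46.8 ± 4.55 in WT_D0 (SD, n = 3 each), and its dark groups overlapped. AT2G25510, AT5G44580, AT4G18740, AT5G01015 and AT3G15110 had differences of 2.68, 2.66, 2.28, 2.27 and 2.18 log2 units. AT1G78995 read 113, 57.3 and 75.3 units in WT_R18, and below 0 in all other arrays but WT_R1 replicate 1, where it read 3.95 units.

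The dark pif3 arrays took no part in the selection and address whether loss of PIF3 alone raises these genes without light. None of the 51 passed the test in either direction. In the fit with limma over all 21 arrays, no member was called at an adjusted p under 0.05 in pif3_D0 against WT_D0, where the calls among the 22746 probe sets were 0.211% higher and 0.0659% lower. In pif3_D1 against WT_D1, a contrast that shares the WT_D1 arrays with the rule, again no member was called, against 0.0264% of probe sets higher and 0.0132% lower. As the mean of both dark times no member was called, while 1.13% of probe sets were higher and 0.637% lower. At an unadjusted p under 0.05 there were 7 members at D0 (13.7%, against 10.9% of locus-only genes), 4 at D1 (against 787 of 11797 locus-only genes) and 7 for the mean (13.7%, against 13.3% of locus-only genes). With background shares this low, 0 of 51 is near the background. The count for the mean was sensitive to the fit: with only probe sets averaging 32 units or more, AT5G01015, AT1G22690 and AT5G44580 were called higher by limma, with adjusted p of 0.0396, 0.0388 and 0.0389. That average took in the WT_R18 arrays, on which the rule chose. AT5G01015 and AT1G22690 passed the filter only through their WT_R18 means of 216 and 290 units, so their calls under it are not independent of the selection.

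At D0 the differences between pif3 and the wild type ran between -0.62 and 0.67 log2 units with a median of 0.04, and 32 of 51 were above 0, against 5831 of 11797 locus-only genes. At D1 they ran between -0.32 and 0.60 with a median of 0.06 and 34 above 0, against 5554 of the locus-only genes. Locus-only genes had a median of 0.00 in both. The 95% interval of the D0 difference lay within 1 log2 unit of 0 for 44 members and that of the mean for 50. Over all 51 no interval at D0 went above 1.25 or below -1.35 log2 units. In WT_D0 9 members averaged less than the offset, and 2 members averaged below 0. For such dim members the offset and the raising of negative values to 0 shrink the differences. A narrow interval therefore does not exclude a change in their RNA. AT1G78995 read below 0 in all pif3, WT_D0 and WT_D1 arrays, so its difference was 0 by construction. The members' median per array was 5.87, 6.004 and 5.999 in pif3_D0, against 5.93, 6.04 and 5.93 in WT_D0, and 6.15, 5.89 and 5.95 in pif3_D1, against 6.02, 5.89 and 5.98 in WT_D1. The genotypes overlap at both times.

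**Figure D5:**
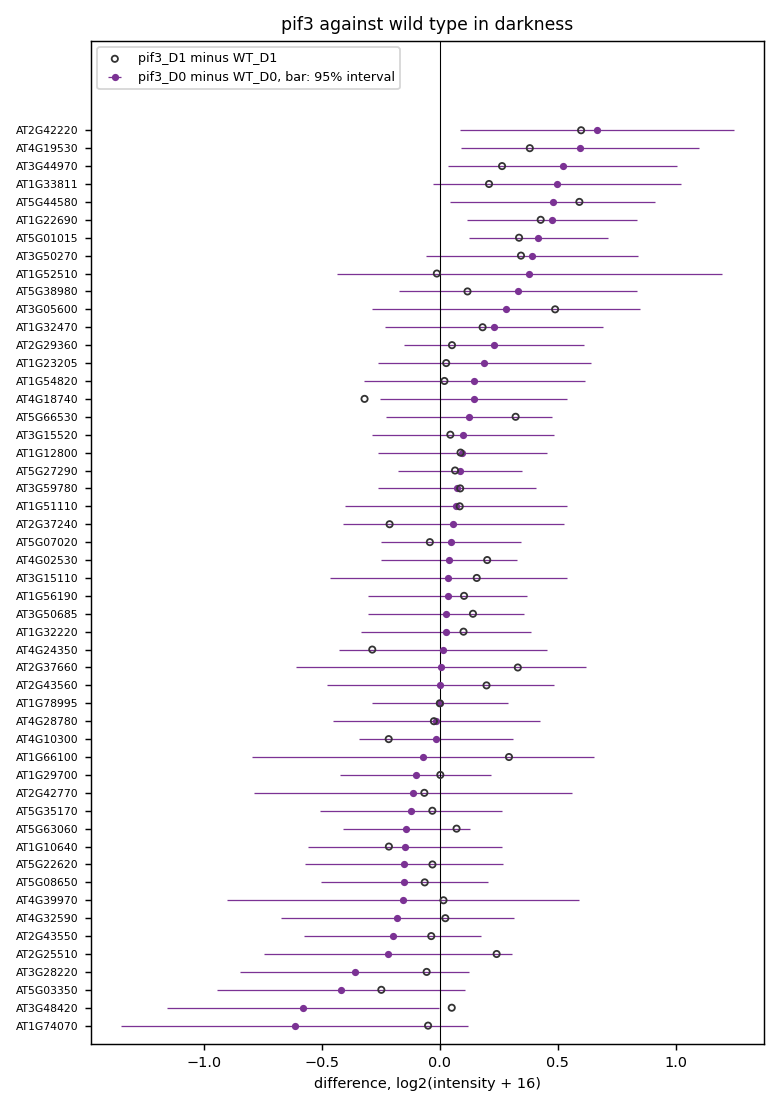
Rows are the 51 members and the x axis gives the difference between pif3 and wild type in log2(intensity + 16). Filled points are D0 with 95% intervals from limma and open points are D1. Differences at D0 run between -0.62 and 0.67, and 7 of the 51 intervals do not reach 0.

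The smallest p-values for the mean of both dark times belonged to 4 members that were singled out after their values were seen. AT5G01015 read 29.9, 33.8 and 36.1 units in pif3_D0, against 27.5, 18.7 and 17.1 in WT_D0, and 42.8, 32.2 and 39.99 in pif3_D1, against 22.95, 31.7 and 26.5 in WT_D1. All pif3 arrays were above all wild-type arrays of the same time. The mean difference was 0.38 ± 0.10 log2 units (SE) with an adjusted p of 0.0657 from limma. The gene was called, at 0.45 log2 units and an adjusted p of 0.0382, with the 25S ribosomal RNA signal as a covariate. Without WT_D0 replicate 1 its adjusted p was 0.048 from limma, and over its alternatives the adjusted p ran between 0.0382 and 1.

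AT1G22690, the gibberellin-regulated peptide gene, read 35.8, 27.6 and 47.96 units in pif3_D0, against 29.2, 15.4 and 21.9 in WT_D0, and 29.4, 28.2 and 36.9 in pif3_D1, against 28.4, 18.3 and 12.6 in WT_D1. Genotypes overlapped in single arrays at both times. Its mean difference was 0.45 ± 0.12 log2 units (SE) with an adjusted p of 0.0685 from limma. Without WT_D1 replicate 1 that adjusted p was 0.0399, and without pif3_D0 replicate 2 it was 0.0361.

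AT5G44580 read 133, 202 and 155 units in pif3_D0, against 113, 114 and 107 in WT_D0, and 245, 229 and 171 in pif3_D1, against 132, 141 and 135 in WT_D1. Its groups did not overlap at either time, and the mean difference was 0.53 ± 0.14 log2 units (SE) with an adjusted p of 0.0727 from limma. The thylakoid gene AT2G42220 read 272, 319.7 and 219 units in pif3_D0, against 118, 187 and 193 in WT_D0, and 291, 328 and 355 in pif3_D1, against 211, 171 and 249.9 in WT_D1. Here too the pif3 arrays were all above the wild type of the same time, by 0.63 ± 0.19 log2 units (SE) as a mean, with an adjusted p of 0.115 from limma. The share of all probe sets with pif3 arrays so separated at D1, or at both times, is not given here. These 4 members had 3.91 log2 units (AT2G42220) to 2.27 log2 units (AT5G01015) between WT_R18 and WT_D18.

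In the D0 arrays alone, pif3 stood above the wild type in all 3 by 3 pairs for 6 members, as for 7.15% of probe sets, and below it for 1, as for 5.9%. The 6 were AT2G42220, AT3G44970, AT1G33811, AT5G44580, AT5G01015 and AT3G50270, and the 1 was AT3G28220. At the low end, AT1G74070 averaged 7.14 ± 5.60 units in pif3_D0 and 20.8 ± 13.9 in WT_D0, and AT3G48420 averaged 29.8 ± 16.4 in pif3_D0 and 49.9 ± 4.14 in WT_D0 (SD, n = 3 each). Their differences at D0 were -0.62 and -0.58 log2 units with adjusted p of 0.515 and 0.411 from limma. At D1 the same genes differed by -0.05 and 0.05 log2 units, and the difference between the times was called for no member and for 0 of all probe sets (0%) in limma, with 0 members and 499 of 11797 locus-only genes at an unadjusted p under 0.05.

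An extra hour of darkness in pif3 gave no call among the members either, with 0.0879% of probe sets higher and 0.106% lower past the test in pif3_D1 against pif3_D0. The smallest adjusted p was 0.236 from limma, for AT3G48420, with a difference of 0.76 log2 units, and 1 of 51 members had an unadjusted p under 0.05, against 1519 of 11797 locus-only genes. Of the genes the rule sets aside, AT3G05730 averaged 708 ± 227 units in pif3_D0 and 300 ± 164 units in WT_D0 (SD, n = 3 each). Its mean difference of 1.51 log2 units was called in limma, with an adjusted p of 0.0205, so counting it with the members would make 1 call higher. AT1G52220 had a mean difference of 0.22 log2 units and an adjusted p of 0.278.

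Genes with a symbol followed the pattern too. Of 1557 such genes 15 met the same thresholds (0.963%): NdhN, SBPASE, VTC4, EXPB3, CHLI2, CHIL, HEME1, NdhL, TAPX, RCA, ty2, PSAN, NTRC, HEME2 and FTSZ2-2. From gene lists for light and plastid functions, 1 of 8 measured nuclear photosynthesis genes (PSAN, a photosystem I subunit), 2 of 3 Calvin cycle genes (RCA, the activator of Rubisco, and SBPASE, a bisphosphatase of the cycle) and 3 of 7 tetrapyrrole synthesis genes (HEME1, HEME2 and CHLI2, on the path to chlorophyll) met them. None of 3 measured light signalling genes and none of 1 measured cuticle gene did. Most listed genes were not measured, as the lists held 39, 12, 20, 25 and 14 entries in that order. Among the light signalling genes HYH, a bZIP light factor, differed by 2.40 log2 units at 1 h already and by 3.41 at 18 h. Its dark means of 7.02 units in WT_D1 and 6.10 in WT_D18 lay under the offset, so these sizes rest on it. The others went otherwise, FHL by -0.84 log2 units at 1 h and -1.71 at 18 h, and GI by 1.58 and -0.28. In limma, PSAN was called higher in pif3 as the mean of both dark times, by 0.31 log2 units with an adjusted p of 0.0485. That was 1 of the 15, and their median difference at D0 was 0.26 log2 units, against 0.04 for the members. The sets also differed in brightness, with a median WT_D0 mean of 160.6 units for the 15 and 46.8 for the members. As the offset shrinks differences of dim genes, the 2 medians are not like for like. The difference between these sets was not tested.

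Among locus-only genes with an 18 h difference of at least 2 log2 units, 86 had a 1 h difference of at least 0.3 and 1 had a difference of -0.3 or less. The 86 had a median of 2.73 log2 units at 18 h and 0.73 at 1 h, and 61 of them were lower in WT_D18 than in WT_D0. In pif3 as the mean of both dark times, 3 of the 86 were called higher in limma and none lower, none of the 51 was called in either direction, and 105 of all 11797 locus-only genes were called higher. The difference between the 86 and the 51 was not tested. Their median difference at D0 was 0.04 log2 units, the same as that of the members.

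The thresholds cut through a continuous range. Just inside the 18 h limit lay AT5G22620 at 2.002, AT4G19530 at 2.004 and AT1G56190 at 2.03 log2 units, and just outside it AT4G28706 and AT4G24930 at 1.992 and AT5G27560 at 1.988. Just inside the upper 1 h limit lay AT5G38980, AT4G24350 and AT3G59780 at 0.297, 0.281 and 0.278, and just outside it AT1G11850, AT1G51805 and AT3G10060 at 0.301, 0.31 and 0.32. At the lower 1 h limit the members AT4G39970, AT1G52510 and AT3G44970 had -0.286, -0.247 and -0.216, and AT1G69523 lay outside at -0.32. By locus number, 15, 8, 9, 8 and 11 members lay on chromosomes 1, 2, 3, 4 and 5, which is 29.4%, 15.7%, 17.6%, 15.7% and 21.6% of the set. Of locus-only genes 26.0%, 16.4%, 20.5%, 14.4% and 22.7% lay there.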

How the data were processed

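Whole-seedling RNA was measured on 1-colour Affymetrix arrays, 3 per group in 7 groups. The authors deposited linear intensities, a single value for each probe set on each array, and how they summarised and scaled them is not stated in the labels. Arrays were quantile normalized, values below 0 were set to 0 for logs only, 16 was added and log2 was taken, so differences of dim probe sets are understated. limma 3.58.1 in R 4.3.3 fitted the 7 group means over 21 arrays, with eBayes and Benjamini-Hochberg adjustment over 22746 probe sets (64 controls left out), two-sided and called at an adjusted p under 0.05. On simulated data for pif3_D0 against WT_D0 over 22746 probe sets, 92 of 100 changes of 1 log2 unit and 97 of 100 of 2 log2 units were recovered, and 13 of 202 calls lay outside them. The changes were planted only in probe sets averaging above 64 units on the log2 scale. The members' median was 46.8 units in WT_D0, so recovery for the dimmer members was not simulated. The number of arrays limits the precision.

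Probe sets were named by the platform annotation (13513 with 1 gene, 503 with several and left unnamed, the rest not listed). The members, lists and naming rule were chosen with earlier results of these data known. The rule named the 12 members with the largest 18 h difference among those over 16 units in WT_D18, the 6 largest among dimmer ones, the 2 brightest of each role class, those nearest each threshold, and the extremes of WT_D18 minus WT_D0. Role classes were assigned by hand from general knowledge after the members were known, in place of the planned word search of gene descriptions. Replicate numbers did not pair samples: same-numbered arrays of the pif3 contrasts had correlated deviations of -0.0962 to 0.209, over 0.1 in 1 of 6 pairs. Alternatives changed the offset, normalization, filter, probe set, fit and replicates.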

Additional observations from a re-analysis of the deposited data

How the results depend on the processing

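The number of genes meeting the rule depended on the offset: 117 at an offset of 1, 82 at 4 and 30 at 64, with 38, 40 and 25 of the 51 among them, since log2 differences of dim probe sets grow as the offset shrinks. The other 5 settings gave 45 to 59 genes, and leaving out 1 array gave 41 to 64 with at least 39 of the 51. The 29 named members kept the sign of the 18 h difference in all 580 recomputed values, which ran between 1.25 and 8.37 log2 units. They moved by at least 1 SD in 53 of them. Members called higher in pif3 as the mean of both dark times numbered 3 with only probe sets averaging 32 units or more (AT5G01015, AT1G22690 and AT5G44580), 1 with the 25S signal as a covariate (AT5G01015) and 1 with only the groups of the contrast in the fit (AT3G50270). Leaving out 1 array gave 0 to 1: AT5G01015 without WT_D0 replicate 1, and AT1G22690 without WT_D1 replicate 1 or without pif3_D0 replicate 2. The filter tests fewer probe sets, and AT5G01015 and AT1G22690 passed it only through the WT_R18 arrays that the rule used. What caused any of these calls was not tested. With the replicate block there were 0 calls, as without it, and the smallest adjusted p for the mean was 0.0632. No alternative gave a member called lower, or called at D0, at D1 or between the pif3 times. The 4 singled-out pif3 differences kept their sign in all 96 values, between 0.18 and 0.72 log2 units. Of the members, 15 averaged less than the offset in WT_D18, where the size of the difference depends on the offset. In WT_D1 10 did, and their 1 h difference depends on it as well.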

Other observations

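Probe sets that the annotation pairs with no single gene also held the pattern: 59 of 9233 (0.639%) met both thresholds, and they stay unnamed here.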
